A study of Rattus norvegicus with 12 samples.

Results

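The comparison of rats labelled LPS 2hr with the control pool of the same time was the subject, on 6 of the 12 two-channel arrays of the series. Its members were the 6 arrays whose titles name rats 1, 2 and 3 at 2 h, each rat on 1 array labelled fluor and 1 labelled flip. Both arrays of 1 rat compare the same 2 RNAs, so their deposited log2 ratios were averaged, and n = 3 rats of the 6 in all. Each rat's total RNA was hybridised against an RNA pool named as the control of the 2 h LPS rats, in channel 1 on the fluor arrays and in channel 2 on the flip arrays. The remaining 6 arrays hold 3 rats at 6 h against a 6 h control pool. They entered the fit to share 1 estimate of the spread, and were also used for a comparison of the times further below. Blood is named by the series title alone. Strain, sex, age, the dose and route of lipopolysaccharide (LPS), what the controls received and how many animals a pool holds are not stated in any source used here. Because a pool counts as 1 control sample, every test of a mean ratio against 0 leaves out the spread among controls. A ratio carries no level, so the presence of blood cell markers could not be checked.

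LPS is the outer-membrane glycolipid of Gram-negative bacteria. Host cells sense it through Toll-like receptor 4 with its co-receptors, and the signal passes through NF-kappaB and the MAP kinases to genes of cytokines, their decoy receptors and feedback inhibitors. In the animal, LPS also raises glucocorticoids, brings neutrophils from the marrow into the blood and takes lymphocytes and monocytes out of it. Blood RNA therefore mixes changes within cells with changes in which cells are present, and fewer cells of a type cannot be told apart from less RNA per cell in such samples.

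Of 7200 probes on the array, 4190 had 1 gene symbol, and these gave 3939 genes after the probes of a gene were averaged. Values above 0 were taken to mean more transcript after LPS. That direction is likely, not settled, because no source used here states the dyes. Its basis is that, of 9 measured textbook LPS-induced genes, Il1b, Il1r2, Lcn2, Dusp1, Irf1 and Zfp36 exceeded 0 on each of the 6 arrays. The other 3 lend it nothing, since Sod2 exceeded 0 on 5 arrays, Tnf on 3, with a sign that followed the orientation, and Nfkbia on 2. The other reading multiplies the flip arrays by -1, and values and counts under it are called turned. A gene with equal values in both orientations comes to 0 in that reading, and a gene that keeps a large value there is one whose orientations differ. Fluor arrays were wider than flip arrays in every 2 h rat, with standard deviations over all probes of 0.41, 0.40 and 0.48 against 0.28, 0.28 and 0.27 in rats 1, 2 and 3. Pearson correlations of the fluor and flip arrays over all probes were 0.089, 0.249 and -0.234, so rat 3 stood apart, with arrays that ran against each other. The means of rats 1 and 2, 1 and 3, and 2 and 3 correlated at 0.572, 0.467 and 0.540 as deposited and at 0.509, 0.581 and 0.590 turned, so 2 of the 3 pairs were closer turned. These correlations describe probes on arrays that share a control pool. A turned rat mean holds only the gap between its orientations, so an orientation effect common to the rats would raise the turned correlations. They do not decide the direction.

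**Figure D1:**
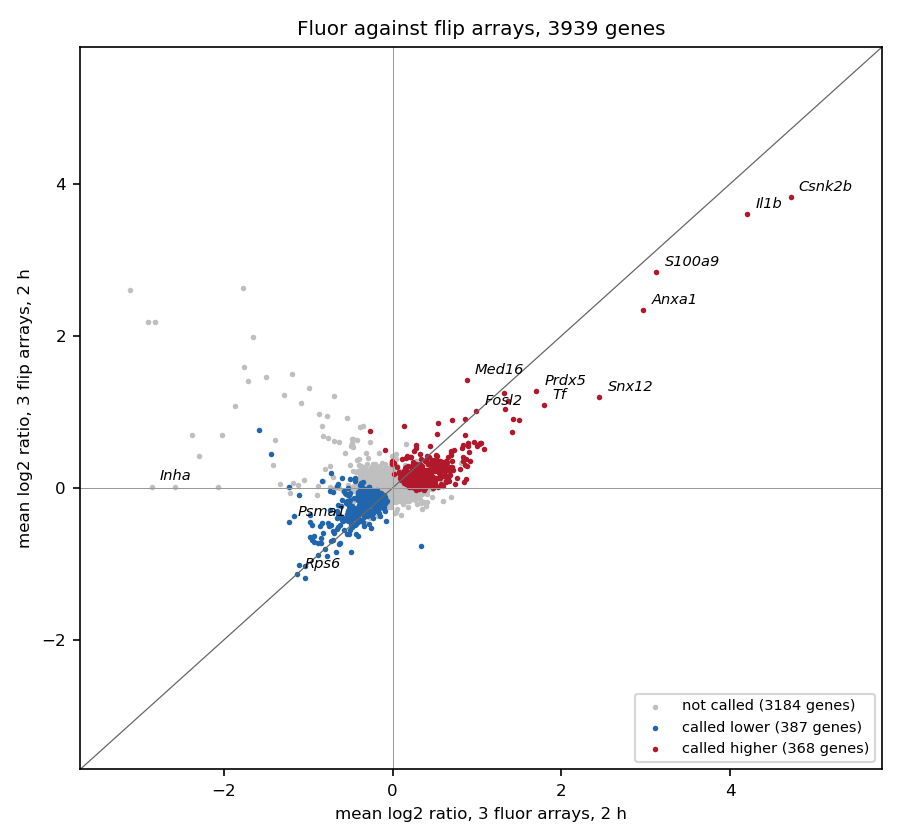
Mean log2 ratio of the 3 fluor arrays (x axis) against that of the 3 flip arrays (y axis) for 3939 genes at 2 h, with genes called higher in red, genes called lower in blue, the rest in grey, and a line of equal values. Csnk2b, Il1b, S100a9 and Anxa1 lie far out near the line, and the grey points at the upper left, with fluor below and flip above 0, were not called.

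In the limma fit of gene means, with Benjamini-Hochberg adjusted p under 0.05 as the threshold (a called gene), 755 of 3939 genes differed from the pool, which is 19.2% of those tested. Of these, 368 (9.34%) were higher and 387 (9.82%) were lower. Most differences were small. The median size among called genes was 0.25 on the log2 scale against 0.073 among all genes, and 37 higher and 36 lower genes reached 1.5-fold, of which 14 and 4 reached 2-fold. Before averaging by gene, 920 of all 7200 probes passed (12.8%), and 604 of the 4190 with 1 symbol passed (14.4%). All 755 called genes had the same sign in the 3 rat means, which a call with 3 rats nearly requires. Of all 3939 genes 2296 had it too. The same sign on all 6 arrays was found in 520 called genes. It was found in 871 of all genes, of which 351 were not called.

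The rats did not contribute equally to these calls. Rat 2 was farthest from 0 in 447 of the 755 called genes, rat 3 in 187 and rat 1 in 121. Its median size among called genes was 0.30, against 0.20 in rat 1 and 0.23 in rat 3. Over all 3939 genes its median size was also the highest, 0.12 against 0.061 and 0.064. Without rat 2 the count of called genes was 323, without rat 1 it was 485 and without rat 3 it was 461. In all, 280 of the 755 passed with any 1 of the 2 h rats left out. With the flip arrays multiplied by -1, 559 genes passed, of which 144 were among the 755 with the same sign and 10 with the other.

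**Figure D2:**
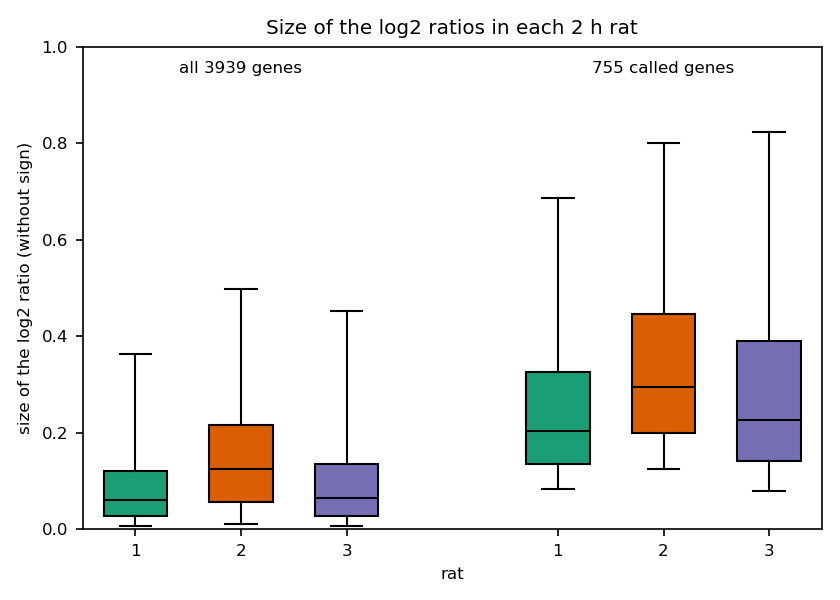
Size of the log2 ratio without its sign (y axis) in each 2 h rat, for all 3939 genes at left and the 755 called genes at right; boxes span the quartiles with the median as a line, and whiskers run from the 5th to the 95th percentile. Rat 2 has the highest median in both sets, 0.12 and 0.30.

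The largest rises belonged to a kinase subunit, a cytokine, a neutrophil protein and an annexin. Csnk2b, the regulatory subunit of casein kinase 2, stood at 5.26, 4.19 and 4.70 on the fluor arrays of rats 1, 2 and 3 and at 4.67, 4.29 and 2.51 on their flip arrays. Il1b, which encodes the fever-inducing cytokine interleukin-1 beta, stood at 4.22, 4.23 and 4.15 and at 3.88, 3.99 and 2.94. S100a9, a calcium-binding protein that neutrophils hold in bulk, stood at 3.44, 3.15 and 2.78 and at 3.37, 3.16 and 1.99. In each of these the flip array of rat 3 was the lowest. Anxa1, a glucocorticoid-induced protein that restrains neutrophil migration, showed the same pattern, with 3.34, 2.81 and 2.77 on the fluor arrays and 2.99, 2.75 and 1.27 on the flip arrays. As means over rats these are 19.3-fold, 14.9-fold, 7.90-fold and 6.30-fold, with adjusted p of 0.000149, 6.7e-06, 0.000432 and 0.0012 in limma's test. Their turned values were 0.45, 0.30, 0.14 and 0.32, none past the threshold.

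Close partners of Csnk2b and S100a9 did not follow them. The catalytic subunits of casein kinase 2 stood at -0.003 ± 0.12 (SD, n = 3) for Csnk2a1 and at -0.16 ± 0.11 for Csnk2a2, with adjusted p of 0.968 and 0.0516. S100a8, which pairs with S100a9 in the protein complex calprotectin, stood at -0.04, -0.01 and -0.20 in rats 1, 2 and 3, with a 95% interval of the mean from -0.19 to 0.03. Probe names rest on the platform annotation, and no probe was matched to a sequence here.

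The stretches of 250 bases before the transcription start of the 2 inflammatory genes that rose most are shown as the reference for these genes, from RefSeq's GRCr8 annotation. Capitals mark TATAAA, a core promoter element that places the start of transcription. The Il1b stretch is chr3:137036582-137036831 and the S100a9 stretch is chr2:178490623-178490872, both on the minus strand.
Il1b: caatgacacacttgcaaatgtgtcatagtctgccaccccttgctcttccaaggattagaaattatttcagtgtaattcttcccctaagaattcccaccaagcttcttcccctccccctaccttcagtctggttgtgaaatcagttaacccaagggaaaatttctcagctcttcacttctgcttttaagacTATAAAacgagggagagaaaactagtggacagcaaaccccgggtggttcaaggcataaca
S100a9: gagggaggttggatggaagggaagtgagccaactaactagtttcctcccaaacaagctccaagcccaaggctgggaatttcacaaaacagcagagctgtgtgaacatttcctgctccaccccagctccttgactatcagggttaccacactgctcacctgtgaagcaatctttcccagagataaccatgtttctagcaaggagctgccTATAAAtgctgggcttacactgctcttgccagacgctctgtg
Searched on both strands of such windows, TATAAA was found before 6 of the 21 genes with a promoter in the table among the 25 highest of the next paragraph (28.6%), and before 12.9% of all 33469 promoters and 8.54% of the 3254 promoters of genes on the array. The AP-1 site TGANTCA was in 0 of the 21, in 6.34% of all and in 4.86% of those on the array. The NF-kappaB consensus was in 1 of the 21, in 6.33% of all and in 8.3% of those on the array. A match of letters describes the window and shows no binding.

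Among called genes with the same sign on all 6 arrays, the 25 highest means ran from 0.74 to 4.27. After the first 4 came Snx12, a sorting nexin of endosomes, at 1.84, 1.88 and 1.75 in rats 1, 2 and 3 (adjusted p = 3.0e-05). The rats agreed closely, yet its fluor arrays stood at 2.08, 2.45 and 2.82 and its flip arrays at 1.60, 1.31 and 0.68. Prdx5, an antioxidant peroxiredoxin, was at 1.77, 1.49 and 1.19 in the rats. Tf, which encodes the iron carrier transferrin, was at 1.5, 1.82 and 1.01, and again the flip array of rat 3 was the lowest, at 0.42. Rnf112, a RING finger gene, was nearly level over the arrays (1.09 to 1.44), and Aldoc, an aldolase of glycolysis, reached 1.32, 1.28 and 1.16. Timp2, an inhibitor of matrix metalloproteinases, was at 1.21, 1.21 and 1.13, and Cyp2f4, a cytochrome P450 gene, at 1.25, 1.30 and 1.03. Gzmc, a granzyme of cytotoxic lymphocytes, was at 1.13, 1.31 and 1.05. All of these separated from 0 in every rat.

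Regulators of transcription and signalling followed. Fosl2, a subunit of the AP-1 transcription factor, was at 1.52, 0.83 and 0.63 on the fluor arrays and at 1.11, 1.07 and 0.83 on the flip arrays (1.00 ± 0.30, adjusted p = 0.00172). Its 2 orientations gave the same mean, with a turned value of -0.0066. Pde2a, a phosphodiesterase that breaks down cyclic nucleotides, had the narrowest range over arrays of the 25, 0.71 to 0.95, with 0.88 ± 0.05 over rats. Med16, a subunit of the Mediator complex, was highest on the flip array of rat 3, at 2.15 against 0.57 to 1.19 on the others. Vasp, an actin regulator, was at 1.11, 1.34 and 0.79 in the rats, and its flip array of rat 3 stood at 0.22. Ptpn1, a tyrosine phosphatase that dampens receptor signalling, was at 0.98, 0.72 and 0.68, and Xpo1, the nuclear export receptor, at 1.06, 0.92 and 0.42. The rest of the 25 were Sdhaf3, Slc4a1, Rsad2, Cyp4f1, Slc2a3, Myl6 and Emb, between 0.74 and 0.82.

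The 25 split by how alike their arrays were. The fluor mean was farther from 0 than the flip mean in 21 of the 25, and the flip array of rat 3 was nearest to 0 in 15. A term for orientation passed its own test in 12 of the 25, in 353 of the 755 called genes and in 1708 of all 3939 genes. Turned, 7 of the 25 kept a call with the same sign and 0 took a call with the other. Sdhaf3, Rsad2, Myl6 and Emb lost their call when 1 of the 2 h rats was left out, with adjusted p up to 0.082, 0.078, 0.11 and 0.069, and the other 21 kept it.

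**Figure D3:**
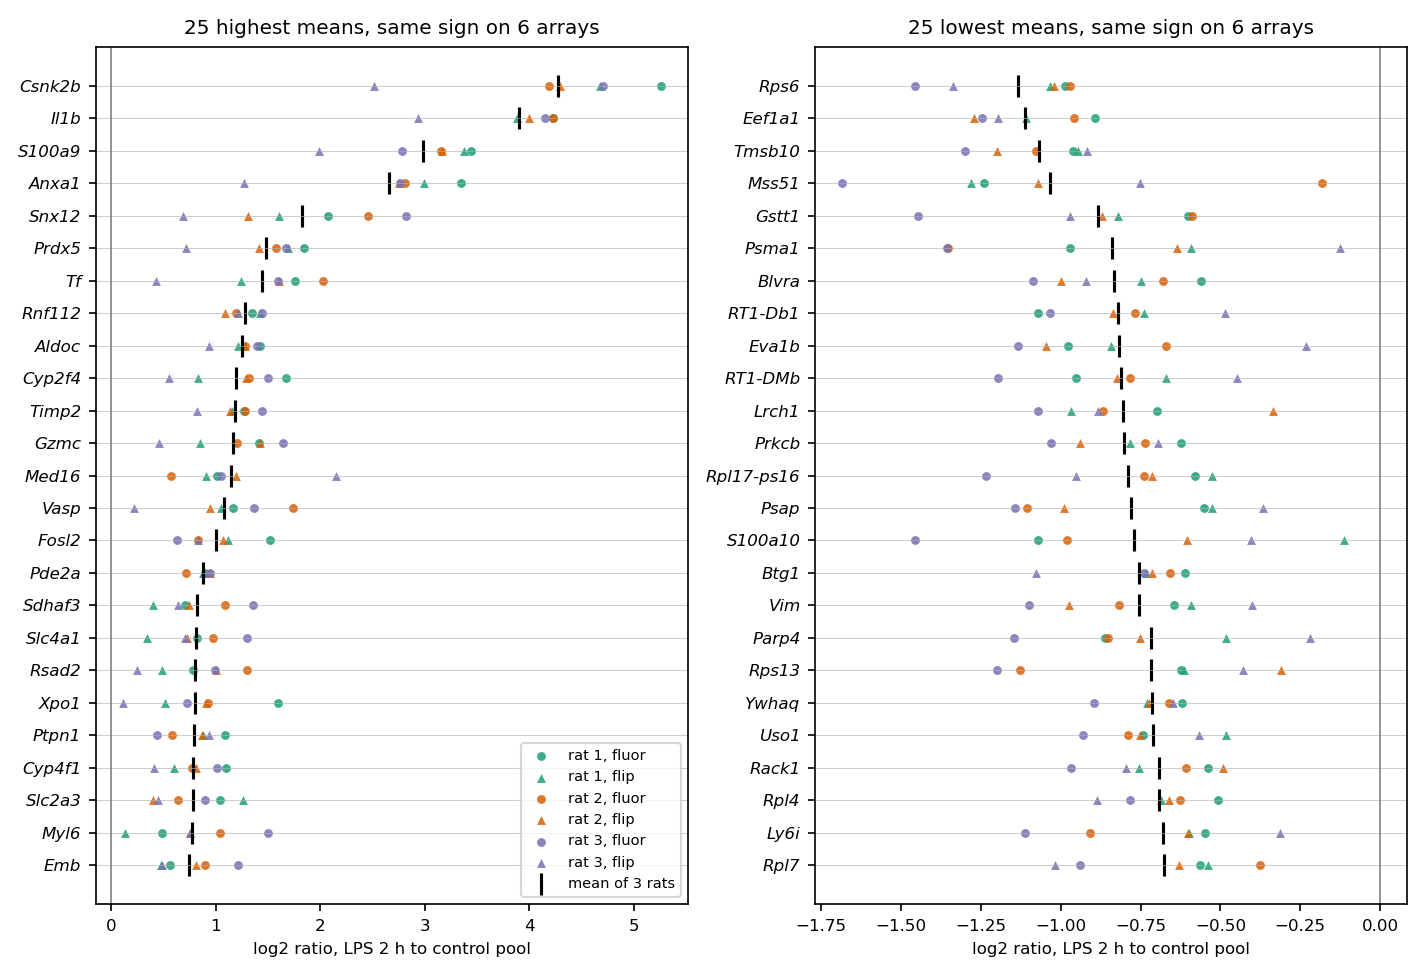
Log2 ratio to the control pool (x axis) on each of the 6 arrays for the 25 genes with the highest means (left) and the 25 with the lowest (right) among called genes of 1 sign throughout; colours are rats, circles are fluor arrays, triangles are flip arrays and black bars are means over 3 rats. The rat 3 flip array is nearest to 0 in 15 genes at left, and the rat 3 fluor array is farthest from 0 in 20 genes at right.

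The lowest means were smaller in size than the highest, from -1.13 to -0.68. Rps6, a small-subunit ribosomal protein that growth signals phosphorylate, stood at -0.99, -0.97 and -1.46 on the fluor arrays and at -1.03, -1.02 and -1.34 on the flip arrays (2.20-fold lower, adjusted p = 0.00066). Eef1a1, the elongation factor that brings aminoacyl-tRNA to the ribosome, stood at -1.0, -1.12 and -1.22 in rats 1, 2 and 3 (2.16-fold lower, adjusted p = 7.0e-05). Both were nearly the same on the 2 orientations, and their turned values were -0.0031 and 0.079. Tmsb10, a thymosin that binds actin monomers, was at -0.95, -1.14 and -1.11. Mss51, named for a mitochondrial translation regulator, had the widest range of the 25, from -1.68 to -0.18 over the arrays.

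Of the others, Gstt1, a glutathione transferase, was at -0.71, -0.73 and -1.21, with rat 3 the lowest. Blvra, which reduces biliverdin to bilirubin, was at -0.66, -0.84 and -1.0. Psma1, an alpha subunit of the proteasome, was at -0.97, -1.35 and -1.35 on the fluor arrays and at -0.59, -0.64 and -0.13 on the flip arrays, so its size rested more on the fluor arrays. S100a10, the partner of annexin A2, showed the same split, with a fluor mean of -1.17 and a flip mean of -0.37. Prkcb, the protein kinase C isoform of B cell signalling, was at -0.70, -0.84 and -0.86, and Ywhaq, a 14-3-3 adaptor, at -0.68, -0.69 and -0.77, both alike on the 2 orientations. Psap, the precursor of the saposins that help break down lipids in lysosomes, was at -0.54, -1.05 and -0.76. Vim, the intermediate filament protein vimentin, was at -0.62, -0.90 and -0.75, and Btg1, an antiproliferative gene of resting lymphocytes, at -0.67, -0.69 and -0.91. The rest were Eva1b, Lrch1, Rpl17-ps16, Parp4, Uso1, Rack1, Ly6i, RT1-Db1, RT1-DMb, Rps13, Rpl4 and Rpl7, between -0.82 and -0.68. In all 25 the call held with any 1 of the 2 h rats left out, with adjusted p of at most 0.024.

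The gene lists from here on were chosen with earlier results of these data known. A share called that is set against 19.2% of all genes therefore describes a list and is no test of it. Of the list of LPS recognition and Toll-like receptor 4 signalling only 6 genes were measured, Tlr4, Ikbkb, Nfkb1, Nfkbia, Nfkbib and Irf3. Of these 0 were called by limma, against 19.2% of all genes, and 3 had an unadjusted p under 0.05. A list of 6 is too short to tell 0 calls from that share. Turned, 1 was called higher and 1 lower. Tlr4, the receptor, stood at 0.01, -0.02 and -0.02 in rats 1, 2 and 3 (95% interval -0.11 to 0.08). Nfkb1, a subunit of NF-kappaB, stood at 0.11 ± 0.08 (adjusted p = 0.0964), and Irf3, the interferon regulatory factor that acts downstream of the receptor, at -0.12 ± 0.11 (adjusted p = 0.11).

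Of the 9 textbook LPS-induced genes 5 rose and 0 fell (55.6% called, against 19.2% of all genes). The list median was 0.21 against -0.0070 over all genes. All 5 had served above as a basis for the direction, so their sign and that of the median are no separate result. Besides Il1b these were Il1r2, the decoy receptor that binds interleukin-1 without signalling (0.73, 0.59 and 0.55 in rats 1, 2 and 3), and Lcn2, which starves bacteria of iron (0.59, 0.43 and 1.06). Dusp1, a phosphatase that switches off MAP kinases, was at 0.37, 1.01 and 0.47, with rat 2 well above the other 2 rats. Irf1, an interferon regulatory factor, was at 0.25, 0.18 and 0.20. Without a 2 h rat the calls of Dusp1 and Irf1 ended, at adjusted p up to 0.063 and 0.071. None of the 5 passed when turned, and Lcn2 and Dusp1 took the other sign there, at -0.15 and -0.094.

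The other 4 did not pass. Tnf, the cytokine tumour necrosis factor, stood at -0.041, -0.098 and -0.32 on the fluor arrays and at 0.17, 0.065 and 0.21 on the flip arrays, so the sign followed the orientation in all 3 rats. Its mean was -0.0037 with a 95% interval from -0.086 to 0.079. Nfkbia, the inhibitor of NF-kappaB, stood at 0.012 (interval -0.070 to 0.095), and Sod2, the mitochondrial superoxide dismutase, at 0.059 (interval -0.049 to 0.17). Zfp36, which speeds the decay of cytokine mRNA, lay above 0 on all 6 arrays at 0.12 ± 0.05 and missed the threshold with adjusted p = 0.107.

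In the MAP kinase cascade 4 of 19 measured genes rose and 5 fell (47.4% called, against 19.2% of all genes). Turned, 1 was called, higher. The risers included Map2k3 (0.29 ± 0.14) and Map2k6 (0.31 ± 0.13), the kinases that activate p38, while Mapk14, p38 alpha itself, was lower by a small amount (-0.13 ± 0.06). Map2k2, a kinase of the ERK branch, fell most, at -0.34, -0.46 and -0.44 in rats 1, 2 and 3, with a fluor mean of -0.42 and a flip mean of -0.41. Dusp6, a phosphatase of ERK, fell to -0.27 ± 0.07. Of these 9 calls 7 ended when a 2 h rat was left out, those of Map2k2 and Dusp6 being the ones that held.

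Among 13 genes of JAK-STAT signalling and cytokine receptors 4 rose and 1 fell (38.5% called, against 19.2% of all genes). Turned, 1 was called, lower. Il2rb, the beta chain shared by the receptors of interleukins 2 and 15, was at 0.55, 0.44 and 0.25, and Tnfrsf1b, a receptor of tumour necrosis factor, at 0.20, 0.36 and 0.13. Of the 2 chains of the interleukin-6 receptor, the ligand-binding Il6r was at -0.32, -0.33 and -0.43 (adjusted p = 0.00398) and the signalling chain Il6st at 0.15, 0.21 and 0.10 (adjusted p = 0.0201). In every rat the first lay below 0 and the second above it, but the calls of Il6st and Tnfrsf1b ended without a 2 h rat, at adjusted p up to 0.095 and 0.062.

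Of 12 glucocorticoid-responsive genes 6 rose and 0 fell (50% called, against 19.2% of all genes), with a list median of 0.23. They were Anxa1, Il1r2, Dusp1, Nr3c1, Mt2A and Cebpd, so 2 of them also stand in the textbook LPS list. Nr3c1, the glucocorticoid receptor, was at 0.59, 0.61 and 0.39 in rats 1, 2 and 3 (adjusted p = 0.0012). Mt2A, a metallothionein that binds zinc, was at 0.37, 0.58 and 0.20, and Cebpd, a transcription factor of the acute phase, at 0.49, 0.22 and 0.22. The calls of Dusp1, Mt2A and Cebpd ended without a 2 h rat. Turned, 1 of the 12 was called higher and 2 were called lower, Cebpd (-0.097) among them. The clock gene Per1 (0.077) and Glul, glutamine synthetase (-0.10), of the same list, did not pass.

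The S100 and annexin families split within themselves. Of 8 S100 genes 2 rose, S100a9 and S100a11 (0.48 ± 0.11), and 3 fell, S100a10, S100a4 (-0.42 ± 0.14) and S100a13 (-0.12). Of 7 annexins Anxa1 and Anxa11 (0.21 ± 0.05) rose and Anxa4 fell. The share called was 62.5% of the S100 genes and 42.9% of the annexins, against 19.2% of all genes. S100a9 and Anxa1, among the largest rises above, count in these shares. Anxa4 was at -0.66 on the fluor arrays against 0.024 on the flip arrays, so its fall rested on 1 orientation. Turned, 2 S100 genes and 1 annexin were called, all lower, and the calls of S100a11, S100a13 and Anxa4 ended without a 2 h rat. Of 15 hypoxia and HIF target genes 5 rose and 0 fell (33.3% called, against 19.2% of all genes). They were Tf, Aldoc, the glucose transporters Slc2a3 (1.15, 0.52 and 0.67 in rats 1, 2 and 3) and Slc2a1 (0.14 ± 0.03), and Hk1, a hexokinase (0.26 ± 0.09). Turned, 1 of the 15 was called higher and 2 lower, and the calls of Hk1 and Slc2a1 ended without a 2 h rat. The list median was -0.0065, close to that of all genes, and Ldha, lactate dehydrogenase, stood at -0.034.

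Markers of blood cell types moved in different directions. Of 8 measured neutrophil markers 5 rose and 0 fell (62.5% called, against 19.2% of all genes), with a median of 0.60. Turned, 1 was called, higher, and the median was 0.10. They were S100a9, Lcn2, Il1r2, Chi3l1, a chitinase-like granule protein (0.85, 0.50 and 0.37), and Srgn, the proteoglycan of granules (0.85, 0.73 and 0.53). Rat 1 was the highest of the 3 in 4 of these 5, and rat 3 was the highest in Lcn2. S100a8, Cyba (0.12), a subunit of the oxidase, and Defa5 (0.058) did not pass, and the call of Chi3l1 ended without a 2 h rat. Srgn, Lcn2 and Il1r2 are also made outside neutrophils.

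All 7 calls among the 13 T cell, B cell and class II markers were lower, where 9.82% of all genes were called lower. Of 6 measured T cell markers 2 fell, Cd3d, a chain of the T cell receptor complex (-0.47, -0.44 and -0.27), and Lef1, a transcription factor of naive T cells (-0.23 ± 0.12). Both calls ended without a 2 h rat, and turned 2 of the 6 were called lower. Tcf7 had the lowest mean, -0.55, but was at -1.41 on the fluor arrays against 0.30 on the flip arrays and did not pass (adjusted p = 0.145). Of 3 B cell markers Cd37, a tetraspanin (-0.36, -0.46 and -0.52), and Blnk, an adaptor of the B cell receptor (-0.13 ± 0.05), fell, and the call of Blnk ended without a 2 h rat. The B cell median was -0.13 as deposited and -0.036 turned.

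Of 4 MHC class II genes, whose products display peptides to CD4 T cells, 3 fell. RT1-Db1 was at -0.90, -0.80 and -0.76, RT1-DMb at -0.81, -0.80 and -0.82, and RT1-Ba at -0.37, -0.92 and -0.54, while RT1-DMa, at -0.13, did not pass (adjusted p = 0.0603). The rats were nearly equal in the first 2 and differed in RT1-Ba, where rat 2 was lowest. The list median was -0.71 as deposited and -0.14 turned. Of 4 monocyte and macrophage markers 1 fell, C1qb, a chain of complement C1q (-0.20 ± 0.04). That is 25% called, against 19.2% of all genes.

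Among 5 markers of NK and cytotoxic cells Gzmc and Il2rb rose, and Ccl5, a chemokine stored by these cells, fell to -0.99, -0.40 and -0.63. The share called was 60%, against 19.2% of all genes. Prf1, the pore-forming perforin of the same cells, stood at 0.0095. Of 12 erythroid markers 6 rose and 1 fell (58.3% called, against 19.2% of all genes), with a median of 0.26. Slc4a1, the anion exchanger of the red cell membrane, was at 0.58, 0.85 and 1.00, Car2, a carbonic anhydrase, at 0.62, 0.79 and 0.34, and Alas2, the first enzyme of haem synthesis in red cells, at 0.21, 0.62 and 0.55. The alpha-globin gene Hba-a1 was called lower by a small amount (-0.14 ± 0.03), with -0.35 on the fluor arrays against 0.077 on the flip arrays. Of these 7 calls 6 ended without a 2 h rat, and turned 4 of the 12 were called higher and 2 lower. Whether shifts in cell makeup account for the changes in other lists was not tested.

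The 2 lists of cytosolic ribosomal protein genes together held 27 falls, more than any other list. Of 16 measured small-subunit genes 12 fell and 0 rose, with a median of -0.45, and of 29 large-subunit genes 15 fell and 2 rose, with a median of -0.28. Over all genes 9.82% were called lower. Rps3, a protein at the entry of the mRNA channel, was at -0.67, -0.61 and -0.62 in rats 1, 2 and 3. Rps7 was at -0.39, -0.51 and -0.84, Rps23 at -0.38, -0.57 and -0.98 and Rpl35 at -0.41, -0.36 and -0.79. In these 3 genes rat 3 was the lowest. Rpl6, at -0.58, -0.68 and -0.54, had no such order.

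The exceptions among ribosomal genes were few. Rpl36a (0.22, 0.27 and 0.37) and Rplp1, a stalk protein (0.14, 0.37 and 0.29), rose in all 3 rats, and both calls ended without a 2 h rat. Of the 27 that fell 3 lost their call so. Rpl5 had a low mean of -1.03 but was not called (adjusted p = 0.152), since it stood at -2.71, -0.36 and -0.0067 in the rats and held the repeated value of its array on 5 of the 6 arrays. Turned, 2 of the 45 genes were called higher and 1 lower, and the medians were -0.056 and -0.024, since most of these genes were alike on the 2 orientations.

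Ribosomal protein mRNAs are known to begin with a run of pyrimidines, through which growth signals set their translation. The windows from 10 bases before to 20 bases after the start are shown for 4 genes that fell and 1 that rose, in RefSeq's GRCr8 annotation, with runs of 8 or more C or T in capitals. Rps6 is the gene of the list with the lowest called mean and Rpl36a the one with the highest, and the other 3 hold a run. They lie at chr5:106420521-106420550 (Rps6, minus strand), chr1:180009641-180009670 (Rps13, minus), chr2:23814507-23814536 (Rps23, plus), chr3:43165902-43165931 (Rpl35, minus) and chrX:102059439-102059468 (Rpl36a, plus).
Rps6: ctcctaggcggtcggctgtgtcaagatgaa
Rps13: ttcctacctcgTTCTCTCTTTgcttccaga
Rps23: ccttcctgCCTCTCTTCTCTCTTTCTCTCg
Rpl35: CTTCCTCTTTCTCTCgaaccgggcggcctc
Rpl36a: tataaacttccgttgctgctctagcctctc
Read on the strand of the gene, such a run was in 22 of the 38 ribosomal genes with a promoter in the table (57.9%), in 10.8% of all promoters and in 10.6% of those of genes on the array. It was in 14 of 22 genes that fell (63.6%) and in 8 of the 16 others (50%), so genes that fell and genes that did not both held it. The Rps6 and Rpl36a windows hold no run of that length, which says only that these letters are not in these windows.

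Translation factors went both ways. Of 28, 5 fell and 3 rose (28.6% called, against 19.2% of all genes). Of these 8 calls 3 ended without a 2 h rat, that of Eif3d among them. Turned, 3 of the 28 were called higher and 1 lower. Eef1a1 and Eef2, the factor that moves the ribosome along the mRNA (-0.64, -0.50 and -0.75), fell with the ribosomal genes. Eef1a2, an isoform of this elongation factor with its own gene, went the other way, at 0.51, 0.48 and 0.49 (adjusted p = 0.00161). The initiation factors Eif4b (0.42 ± 0.10) and Eif3d (0.41 ± 0.25) rose. Both probes of Eif4b were called higher, at 0.56 and 0.27. Npm1, a nucleolar protein of ribosome assembly, fell to -0.37 ± 0.08.

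Membrane traffic was the longest list, 86 genes, of which 15 rose and 13 fell (32.6% called, against 19.2% of all genes). Turned, 8 were called higher and 9 lower. Beside Snx12 the risers held coat proteins of the Golgi and endoplasmic reticulum, Copa (0.88, 0.75 and 0.54 in rats 1, 2 and 3), Cope (0.12, 0.65 and 0.41) and Sec31a (0.15, 0.74 and 0.49). The last 2 were lowest in rat 1 and highest in rat 2, and both lost their call without a 2 h rat, as did 23 of the 28 calls of the list. The falls were small, led by the GTPases Arl1 (-0.36) and Rab5c (-0.34). The list also caught Cops7a, which fell, and Cops7b, which rose, subunits of the COP9 signalosome and no coat proteins.

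Of 33 lysosome genes 9 fell and 3 rose (36.4% called, against 19.2% of all genes). Of these 12 calls 7 ended without a 2 h rat, 5 of the falls among them, and turned 3 genes were called higher and 3 lower. Beside Psap the falls included Laptm5, a lysosomal membrane protein of blood cells (-0.55, -0.41 and -0.43), and Ctse, cathepsin E (-0.40, -0.57 and -0.50). Ctsc, the protease that activates granule proteases, rose at 0.41, 0.57 and 0.47, and both of its probes were called, at 0.72 and 0.25. Ctsb, cathepsin B, had a higher mean, 0.74, but stood at 0.099 in rat 1 against 1.13 and 1.00 in rats 2 and 3 and did not pass (adjusted p = 0.0505).

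Of 34 actin cytoskeleton genes 5 rose and 5 fell (29.4% called, against 19.2% of all genes). Of these 10 calls 7 ended without a 2 h rat, and turned 6 genes were called higher and 2 lower. Beside Tmsb10, the falls included Ezr, ezrin, which ties actin to the membrane (-0.44 ± 0.07), and Cfl1, the severing protein cofilin (-0.40 ± 0.07). The beta-actin gene Actb stood at 0.067. Of 21 proteasome genes 5 fell, led by Psma1 and Psmb4 (-0.35 ± 0.05), and 3 rose, led by Psma2 (0.40 ± 0.20). That is 38.1% called, against 19.2% of all genes. Of these 8 calls 5 ended without a 2 h rat, those of Psma2 (adjusted p up to 0.062) and the other 2 risers included. Turned, 2 were called higher and 1 lower.

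Redox enzymes also split. Of 40 genes of the glutathione, peroxiredoxin and thioredoxin systems 9 rose and 6 fell (37.5% called, against 19.2% of all genes). Of these 15 calls 6 ended without a 2 h rat, and turned 3 genes were called higher and 2 lower. Beside Prdx5 the risers were led by Gpx1, a glutathione peroxidase (0.31, 0.72 and 0.36), and Txnrd1, a thioredoxin reductase (0.40, 0.35 and 0.44). Gclm, a subunit of the enzyme that starts glutathione synthesis, was at 0.27, 0.45 and 0.42. Gpx1 was at 0.85 on the fluor arrays against 0.078 on the flip arrays, the widest gap of these 3. Gstt1, Blvra and Gstm2 (-0.60 ± 0.29) led the falls. Hmox1, haem oxygenase 1, stood at -0.068 (95% interval -0.23 to 0.10). Of 19 cytochrome P450 genes 4 rose and 0 fell, Cyp2f4, Cyp4f1 (0.78 ± 0.07), Cyp4f4 (0.33 ± 0.05) and Cyp2d4 (0.26 ± 0.17), while the list median was -0.00049. The share called was 21.1%, against 19.2% of all genes. Turned, 1 was called higher and 5 lower with a median of -0.062, so the one-way count depends on the direction read.

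Of 46 oxidative phosphorylation genes 3 fell and 2 rose (10.9% called, against 19.2% of all genes). Turned, 5 were called, all higher. The falls held Ndufb4, a subunit of complex I, at -0.65, -0.61 and -0.56 and Atp5pf, of the ATP synthase, at -0.47, -0.41 and -0.51. Of 22 fatty acid oxidation genes 0 passed in limma, against 19.2% of all genes. Among the 22, 5 had an unadjusted p under 0.05, and 5 were called when single arrays were fitted with an orientation term. Turned, 2 of them were called higher and 2 lower. Of 20 genes of cholesterol and fatty acid synthesis 2 fell (10% called, against 19.2% of all genes). Both calls ended without a 2 h rat, and turned 4 of the 20 were called lower.

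Genes of other tissues were also called. Of 22 liver genes 3 rose and 1 fell (18.2% called, against 19.2% of all genes), turned 1 was called higher and 3 lower, and Alb, albumin, measured by 3 probes, stood at -0.044 ± 0.02. Among 14 muscle genes 4 rose (28.6%, where 9.34% of all genes were called higher), including Ryr1, the calcium release channel of skeletal muscle (0.59, 0.74 and 0.74), and Actc1, cardiac actin (0.42, 0.91 and 0.59). Both of these stood higher on the fluor arrays, with fluor means of 0.91 and 0.92 and flip means of 0.47 and 0.36. The calls of the other 2 muscle genes ended without a 2 h rat, as did 2 of the 4 liver calls, and turned 3 muscle genes were called higher and 2 lower.

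**Figure D4:**
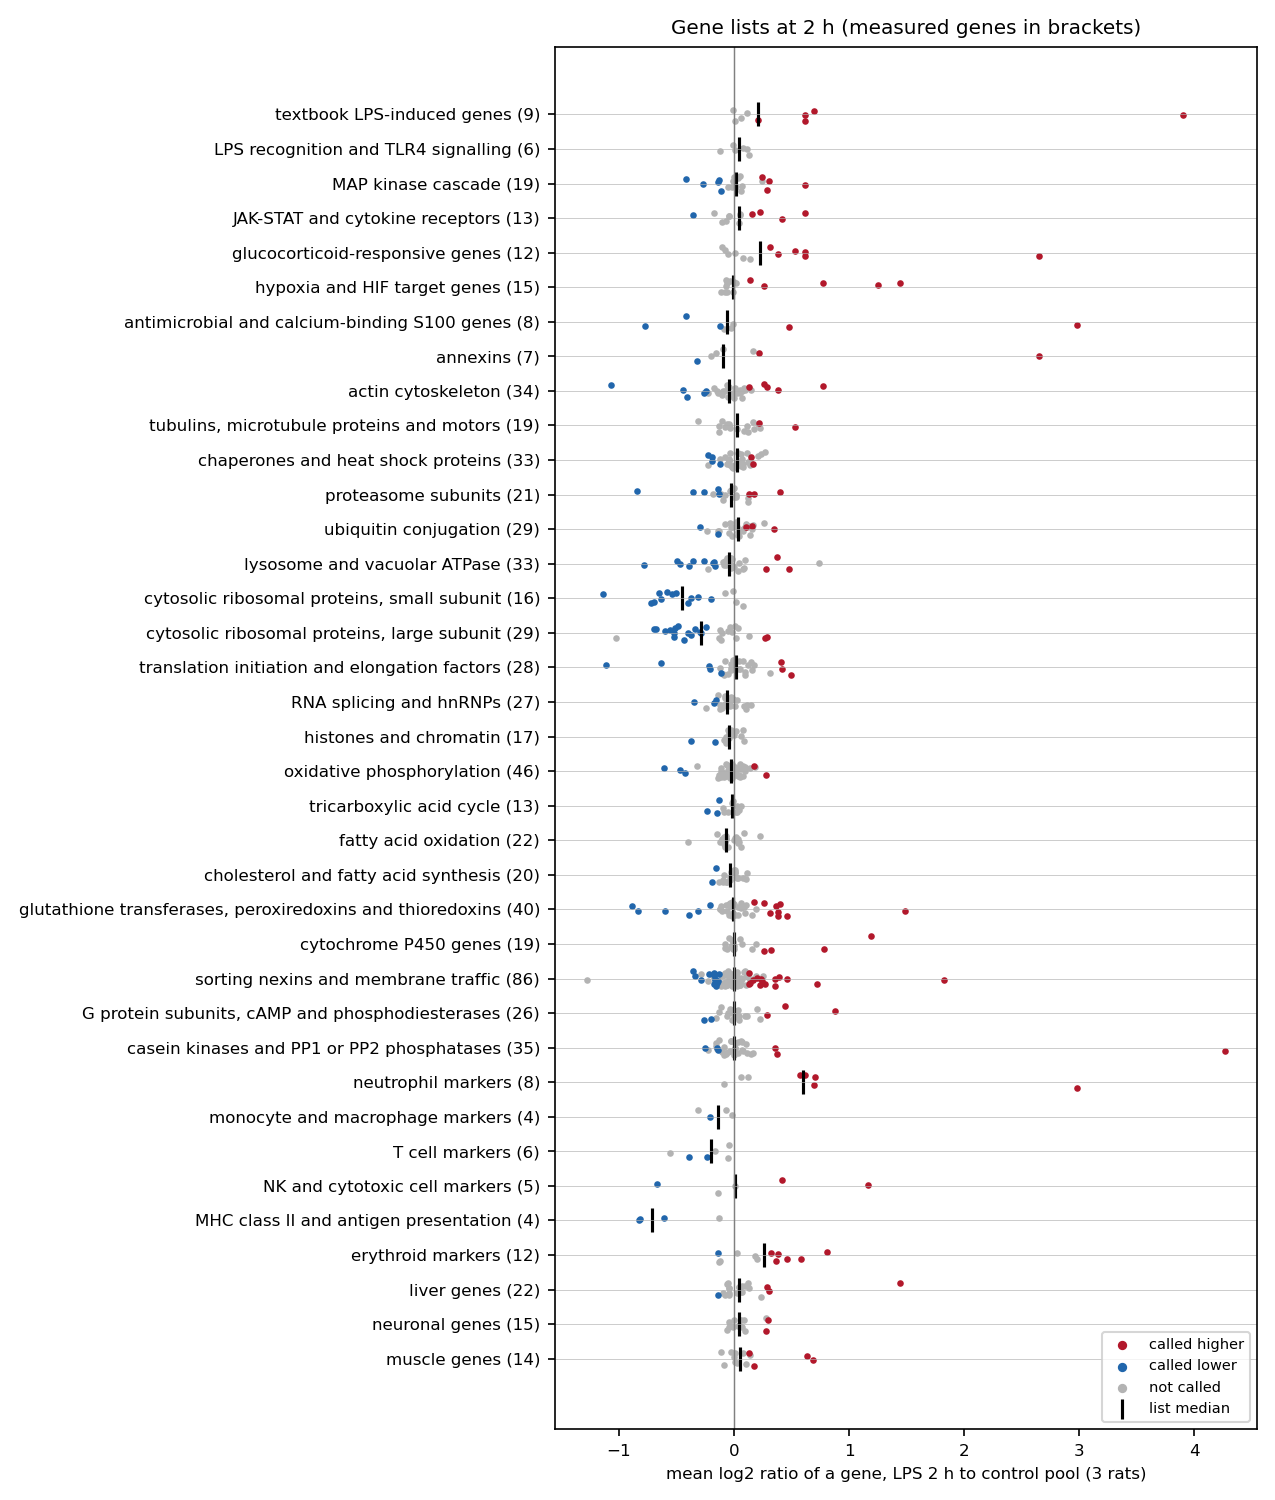
Mean log2 ratio at 2 h over 3 rats (x axis) for each measured gene of the lists with at least 4 measured genes, 1 list a row with its number of genes; red points were called higher, blue lower, grey neither, and black bars are list medians. The ribosomal medians (-0.45 and -0.28) and the class II median (-0.71) lie left of 0 and the neutrophil median (0.60) lies right of it, while most others lie near 0.

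In the remaining larger lists 10.5% to 23.1% of genes were called, against 19.2% of all genes. Of 33 chaperones 2 rose and 4 fell, of 29 ubiquitin conjugation genes 3 rose and 2 fell, and of 27 splicing genes 0 rose and 3 fell. Without a 2 h rat all 6 chaperone calls, 4 of the 5 ubiquitin calls and 2 of the 3 splicing calls ended. Turned, 2 chaperones were called higher and 2 lower, 5 ubiquitin genes higher, and 1 splicing gene higher and 1 lower. Of 26 genes of G proteins and cyclic nucleotides 3 rose, Pde2a, Pde4b (0.37, 0.65 and 0.33), which limits cAMP in leukocytes, and Adcy4, and 2 fell. Of 35 casein kinase and phosphatase genes 3 rose and 3 fell, with Ppp1cb, a catalytic subunit of protein phosphatase 1, at 0.30, 0.34 and 0.49. Turned, 3 of the 26 were called, all lower, and of the 35 genes 1 was called higher and 8 lower. Without a 2 h rat 1 of the 5 and 3 of the 6 calls of these 2 lists ended. Of 17 histone and chromatin genes 0 rose and 2 fell, of 13 citric acid cycle genes 0 rose and 3 fell, and of 19 microtubule genes 2 rose and 0 fell. Both chromatin calls, all 3 citric acid cycle calls and 1 of the 2 microtubule calls ended without a 2 h rat. Turned, 1 citric acid cycle gene was called higher and 2 lower, and 2 microtubule genes higher and 1 lower. Of 15 neuronal genes 2 rose, of 2 platelet markers Gp9 rose (0.18 ± 0.11), and of 3 mast cell and basophil markers Hdc, the enzyme that makes histamine, fell (-0.15), and all 4 of these calls ended without a 2 h rat.

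Genes with more than 1 probe gave a check of the names. Of 236 such genes, 185 had no called probe, 43 had some called, 3 had all called the same way (Cdc42se1, Ctsc and Eif4b) and 5 had probes called both ways. Mif, a cytokine that counters glucocorticoids, was at -0.23 on 1 probe and 0.22 on another. Fkbp1a, the target of the drug FK506, was at -0.55 and 0.31, so its call among the chaperones is a mean of opposite values. The other 3 were Cd164, Pcyt1a and Wdr26. What these probes match was not tested.

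The largest mean size that did not pass was 1.42, for Inha, the inhibin alpha gene, at -1.53, -2.72 and -0.0067 in rats 1, 2 and 3. On each array 242 to 298 probes share 1 repeated value, and Inha held it on 4 of the 6 arrays. Rab28, next in size at -1.28, held it on 4 arrays. Of the 10 largest sizes that did not pass 6 held a repeated value on at least 1 array, whereas none of the 50 highest and lowest genes above did. Those 50 had the same sign on all 6 arrays. The repeated value was 0.31 on the flip array of rat 3 and below 0 on the others at 2 h, so that rule bars a gene that held it throughout. Among all called genes 4 held it on a 2 h array. Ctss and Tpm4, counted as measured in the lysosome and actin lists, both had the rat means of the repeated values, -0.31, -0.36 and -0.0067.

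At 6 h, 749 genes differed from their own pool (19.0%). Of the 755 genes called at 2 h, 389 were called with the same sign at 6 h (51.5% of the 2 h calls and 51.9% of the 6 h calls), 7 with the other, and 359 were not called there. All of the 25 lowest genes and 18 of the 25 highest were also called at 6 h with the same sign. Both times share 1 estimate of the spread of each gene, so their calls are not independent. The difference between the times, which holds any difference between the pools too, passed for 20 genes (0.508%), 15 of them called at 2 h. Among the 25 highest these were Il1b, Snx12, Timp2, Prdx5 and Aldoc. Among the 25 lowest 0 passed in limma, and 7 had an unadjusted p under 0.05 for that difference.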

How the data were processed

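Each deposited value is a log2 ratio of the 2 channels for 1 probe on 1 array, as the deposited file's headers and its values show. How the authors labelled, scanned, background-corrected and normalized the arrays is not stated in any source used here. Array medians at 2 h lay near 0, from -0.020 to 0.0058, so the values may have been centred beforehand. Base 2 follows from the values themselves, since 100% of the ratios under 5 came out as whole multiples of 0.0001 (within 0.05 of a step). No intensities were used, so depth is unknown and the number of arrays limits the precision. Probes were named from the platform annotation, updated through GRCr8 (4184 of 4190 matched); 46 with several symbols and 2964 with none stayed unnamed.

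Fluor and flip ratios were averaged per rat and probes per gene. limma 3.58.1 (lmFit, eBayes; R 4.3.3) fitted the 6 rats in 1 model of group means, with Benjamini-Hochberg adjustment over all 3939 genes, or all probes for probe counts; it was tested on simulated data. Named were the 25 highest and 25 lowest called genes with the same sign on all 6 arrays, called members of 40 lists (a selection of them), defining members that did not pass, and the textbook genes. Members and lists were chosen with earlier results of these data known. Alternatives covered orientation, normalization, variance prior, repeated values, neighbouring probes (running median of 5 on each side subtracted), probe averaging and rats left out.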

Additional observations from a re-analysis of the deposited data

Results flagged for a closer look

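For 5 of the genes described above the ratio to the pool differed between 6 h and 2 h by limma's test over all 3939 genes, with 3 rats a time. Each difference also holds any difference between the 2 h and 6 h control pools. Il1b was lower at 6 h by -1.86 ± 0.15 (SE; adjusted p = 0.00735), with means of 3.90 at 2 h and 2.05 at 6 h. Snx12 differed by -1.10 ± 0.10 (1.82 and 0.73; adjusted p = 0.011), and Timp2 by -0.86 ± 0.05 (1.18 and 0.32; adjusted p = 0.00201). Prdx5 went the other way, by 1.30 ± 0.18 (1.48 and 2.78; adjusted p = 0.0408), as did Aldoc, by 0.38 ± 0.05 (1.25 and 1.63; adjusted p = 0.0408). With 3 rats a time, no test for a single far-off rat was run.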

How the results depend on the processing

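With the flip arrays multiplied by -1, the other reading of the direction, 24 of the 128 called genes named above kept their call, 81 lost it and 23 took the other sign, all but a few near 0: Blvra (0.058), Btg1 (0.086), Ccl5 (0.17), Cebpd (-0.097), Cfl1 (0.016), Ctse (0.017), Dusp1 (-0.094), Eef1a1 (0.079), Eef1a2 (-0.053), Fkbp1a (0.041), Fosl2 (-0.0066), Gstt1 (0.0040), Laptm5 (0.022), Lcn2 (-0.15), Med16 (-0.27), Mt2A (-0.065), Pde2a (-0.026), Prkcb (0.0044), Ptpn1 (-0.095), Rpl35 (0.11), Rpl4 (0.052), Rpl7 (0.051) and Slc2a1 (-0.052). On the flip arrays alone 77 of the 128 kept their call, and Anxa4 (0.024), Hba-a1 (0.077) and the uncalled Per1 (-0.24) took the other sign. By its arithmetic, a turned mean takes the other sign wherever the flip mean is farther from 0 than the fluor mean. It nears 0 where these means are alike, so a call lost in that way does not mean that the arrays disagreed. Why the orientations differed in size was not tested.

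The count of 755 genes fell to 336 on the flip arrays alone (167 up, 169 down) and to 500 with the 2 h rats alone (239 up), and rose to 1142 on the fluor arrays alone (554 up, 588 down). Fitting single arrays with a term for orientation, blocked by rat, gave 594 genes up. The 920 probes became 301, 376, 1883 and 1836 in the same order. Leaving out 1 rat of either time gave 323 to 668 genes (113 to 330 up, 210 to 338 down) and 315 to 765 probes. Without 2 h rat 2 the falls outnumbered the rises, 210 against 113; the other settings named here moved the split less. Median centring, scaling, quantile normalization, the robust prior, repeated values set to missing, neighbouring probes subtracted and the median over probes each gave 752 to 963 genes and kept 122 to 128 of the 128 calls. No paired analysis was possible because the 2 h and 6 h rats share only the number 2. Without intensities, spots near background cannot be told from others.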
